A study of Mus musculus with 16 samples.

Results

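The circadian clock genes were followed across the 4 groups of this study of the mouse medial prefrontal cortex (mPFC). The 10 genes were taken by name from a table of 26625 genes: Clock, Arntl, Cry1, Cry2, Per1, Per2, Per3, Nr1d1, Nr1d2 and Dbp. All 10 passed the filter on low counts, which left 18826 genes for testing. Male C57BL/6 mice of 8 to 10 weeks were used throughout. The Kdm7a-shRNA groups received pAAV-U6-shRNA(Kdm7a)-CMV-EGFP-WPRE in the mPFC, and the Ctrl groups received the same vector with a control hairpin, although the sample labels call these mice WT. The U6 and CMV promoters are not limited to neurons, so the virus could act in any infected cell. All mice went through conditioned place preference, in which a chamber is paired with a drug. Morphine was given at 10 mg/kg in the Morphine groups and saline alone in the Saline groups. Tissue was taken on the 7th day of withdrawal, straight after a preference test, from 7 mice with the control virus (3 given saline, 4 given morphine) and 9 with the Kdm7a virus (5 given saline, 4 given morphine). The groups are named by virus and treatment, as in Ctrl + Saline. The animals lived under 12 h of light and 12 h of dark and behaviour was tested in the light. The hour at which each mouse was dissected is not given in the sources used here, so hour of day and group cannot be told apart.

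The clock is a feedback loop that runs in nearly every cell. CLOCK and ARNTL (also called BMAL1) bind together to E-box sequences and switch on the Per, Cry, Nr1d1, Nr1d2 and Dbp genes. PER and CRY proteins then repress CLOCK and ARNTL, whereas NR1D1 and NR1D2 (the REV-ERB receptors) repress Arntl, and DBP drives genes that hold a D-box. As a result Arntl peaks at about the opposite time of day from Dbp, Nr1d1 and the Per genes, and Clock follows Arntl with a shallower rhythm.

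Letters of the regulatory elements of this loop were looked for in the promoters of its own genes. Windows of 250 bases before the start of transcription (RefSeq, GRCm38.p6) were searched on both strands for the E-box CACGTG, the related E'-box CACGTT, the D-box written as TTATGTAA or TTATGCAA, and AGGTCA, a half-site within the element read by REV-ERB and ROR receptors. For 9 of the 10 genes, all but Per2, 13 promoters were found, with more than 1 for Clock, Arntl and Per1. The E-box letters were present for Cry1 and Per1 (2 of the 13 promoters), against 6.02% of all 32851 promoters. The E'-box letters were present for Cry1, Cry2 and Nr1d1 (3 of 13), against 3.85%. D-box letters were present for Per1 and Per3 (2 of 13), against 1.5%, and AGGTCA for Clock, Nr1d2 and Per1 (3 of 13), against 14%. None of the letters searched for was found in the windows of Arntl or Dbp, and sequence outside the windows was not searched. The stretches below are shown because they belong to Cry1, which had the largest difference of the 10 genes with the Kdm7a virus averaged over treatments, to Nr1d1, which differed in the other direction, and to Per1 and Per3, which hold the D-box that DBP reads. Capitals mark the letters searched for. In the Cry1 and Nr1d1 lines AACGTG is the E'-box on the opposite strand, and in the Per1 line TGACCT is AGGTCA on the opposite strand.
Cry1: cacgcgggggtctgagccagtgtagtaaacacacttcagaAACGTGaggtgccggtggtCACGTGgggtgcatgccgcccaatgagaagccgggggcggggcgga
Nr1d1: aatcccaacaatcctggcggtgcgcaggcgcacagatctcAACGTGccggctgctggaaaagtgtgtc
Per1: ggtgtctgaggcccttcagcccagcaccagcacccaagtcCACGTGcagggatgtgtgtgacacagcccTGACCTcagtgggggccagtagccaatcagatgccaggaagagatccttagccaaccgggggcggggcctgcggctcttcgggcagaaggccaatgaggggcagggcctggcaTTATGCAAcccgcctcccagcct
Per3: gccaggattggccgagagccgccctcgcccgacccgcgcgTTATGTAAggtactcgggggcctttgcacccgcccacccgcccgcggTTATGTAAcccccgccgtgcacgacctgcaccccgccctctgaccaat
The Cry1 stretch lies at chr10:85185069-85185173 on the minus strand, with its E-box 60 to 55 bases before the start. The Nr1d1 stretch lies at chr11:98775378-98775445 on the minus strand, with its E'-box 28 to 23 bases before the start. The Per1 stretch lies at chr11:69098743-69098947 on the plus strand and carries the letters of an E-box, an AGGTCA half-site and a D-box. The Per3 stretch lies at chr4:151044776-151044910 on the minus strand and carries the D-box letters at 2 places. A match of letters is a description of the sequence and not evidence of binding.

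Levels are given per mouse as CPM (counts scaled to a common library total) after TMM scaling, a normalization that corrects library sizes for differences in composition. Values of different genes were not corrected for gene length, so levels are compared only between groups for the same gene. The depth was 6596991 to 12418112 gene reads per mouse. Differences are log2 fold changes from edgeR's quasi-likelihood test, adjusted over all 18826 genes. To pass, a gene needed an adjusted p under 0.05 together with a fold of at least 1.5. The p-values measure the spread between these mice. In bulk tissue, fewer cells of a type and less RNA per cell cannot be told apart.

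**Figure D1:**
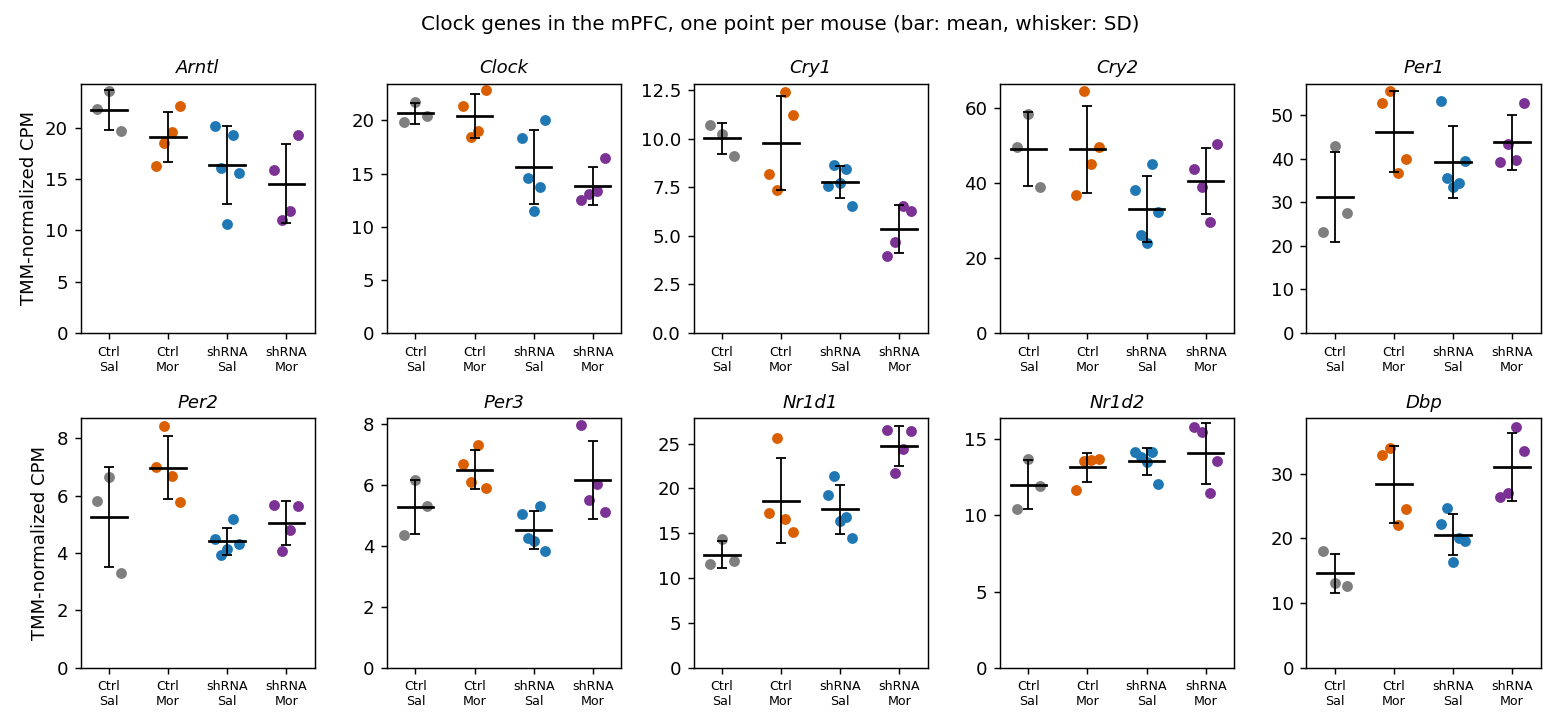
TMM-normalized CPM of the 10 clock genes in the mPFC, with a point per mouse, the group mean as a bar and the SD as a whisker. The group means of Cry1 and Clock are lower with the Kdm7a virus under either treatment. Those of Nr1d1 and Dbp are higher with morphine under either virus and with the Kdm7a virus under either treatment. Dbp spans 12.6 to 37.3 over the 16 mice.

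Clock and Arntl encode the activating pair. Clock (chr5:76209868-76304792, GRCm38, minus strand) was measured at 19.8, 21.8 and 20.4 in the 3 Ctrl + Saline mice and at 21.4, 18.5, 19.0 and 22.9 in the 4 Ctrl + Morphine mice. It stood at 18.4, 14.6, 11.5, 13.7 and 20.0 in the 5 Kdm7a-shRNA + Saline mice and at 12.6, 13.1, 13.3 and 16.5 in the 4 Kdm7a-shRNA + Morphine mice. Under morphine every Kdm7a-shRNA mouse lay below every Ctrl mouse, whereas under saline the groups overlapped. The mean was 20.4 ± 2.07 (SD, n = 4) in Ctrl + Morphine and 13.9 ± 1.79 (SD, n = 4) in Kdm7a-shRNA + Morphine, a log2 fold change of -0.56 (SE 0.162, edgeR adjusted p = 0.0378), which is a fold of 0.678 and just short of the 1.5-fold limit. The adjusted p of Clock rose above 0.05 without any one of 7 mice (Kdm7a-shRNA + Morphine replicates 1, 2 and 3, Ctrl + Morphine replicates 1, 3 and 4 and Ctrl + Saline replicate 1), up to 0.119, and was 0.0515 with no filter on low counts. With library size alone (-0.67) and with known genes only (-0.60) Clock passed both limits. Under saline the Clock difference was -0.40 (SE 0.165, edgeR adjusted p = 0.0942).

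Arntl (chr7:113207465-113314126, plus strand) was measured at 21.8, 23.6 and 19.7 in Ctrl + Saline and at 16.3, 18.6, 19.6 and 22.2 in Ctrl + Morphine. The Kdm7a-shRNA + Saline mice were at 20.2, 16.1, 10.7, 19.4 and 15.6, and the Kdm7a-shRNA + Morphine mice at 15.9, 11.03, 11.9 and 19.3. The group means ran from 21.7 ± 1.94 (SD, n = 3) in Ctrl + Saline through 19.2 ± 2.44 (n = 4) and 16.4 ± 3.77 (n = 5) to 14.6 ± 3.82 (n = 4) in Kdm7a-shRNA + Morphine, but each neighbouring pair of groups overlapped. The Arntl difference between viruses had nearly the same size under either treatment, -0.41 (SE 0.200) under saline and -0.40 (SE 0.198) under morphine. Neither passed, with edgeR adjusted p-values of 0.159 and 0.213.

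Cry1 and Cry2 encode repressors of CLOCK and ARNTL. Cry1 (chr10:85131700-85185064, minus strand) was the only member that passed both limits in the edgeR fit with TMM scaling, the filter on low counts and all mice. It was measured at 10.7, 10.2 and 9.14 in Ctrl + Saline and at 8.19, 7.36, 12.4 and 11.2 in Ctrl + Morphine. In the Kdm7a-shRNA mice it was at 7.58, 8.64, 7.70, 8.44 and 6.53 under saline and at 3.98, 4.68, 6.53 and 6.31 under morphine, where the counts behind the values were 26 to 76 reads. Every Kdm7a-shRNA mouse lay below every Ctrl mouse of its own treatment. Under morphine Cry1 fell by 0.85 on the log2 scale (SE 0.199, edgeR adjusted p = 0.0151), a fold of 0.555. Under saline the difference was -0.37 (SE 0.198, edgeR adjusted p = 0.199), and the test of the difference between these effects gave -0.48 (SE 0.281, edgeR adjusted p = 0.579).

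The Cry1 call under morphine rested on particular mice. Without Ctrl + Morphine replicate 3 it was -0.72 (adjusted p = 0.0540) and without Ctrl + Morphine replicate 4 it was -0.78 (adjusted p = 0.0557), so neither set passed. A fit of the compared groups alone gave -0.86 (adjusted p = 0.0615). Within the Kdm7a-shRNA groups all 4 Morphine mice lay at or below the lowest Saline mouse for Cry1, with a log2 difference of -0.52 (SE 0.192, unadjusted p = 0.0145, edgeR adjusted p = 0.661).

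Cry2 (chr2:92403646-92434043, minus strand) was measured at 49.7, 58.5 and 38.9 in Ctrl + Saline and at 36.7, 64.5, 45.0 and 49.5 in Ctrl + Morphine. The Kdm7a-shRNA mice were at 38.2, 26.0, 23.9, 45.1 and 32.2 under saline and at 43.7, 38.9, 29.5 and 50.3 under morphine. The groups overlapped in each comparison. The largest Cry2 difference was that of the Kdm7a virus under saline, -0.57 (SE 0.220, edgeR adjusted p = 0.0755). It passed at -0.71 without Kdm7a-shRNA + Saline replicate 4 (adjusted p = 0.0258), beside 3730 of 18793 genes. It also passed at -0.69 with library size alone (adjusted p = 0.0363), and with the replicate number as a block.

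Per1, Per2 and Per3 encode the partners of the CRY proteins, and Per1 and Per2 also respond quickly to light, neuronal activity and glucocorticoids. Per1 (chr11:69095217-69109960, plus strand) was at 23.3, 42.8 and 27.6 in Ctrl + Saline and at 52.7, 55.5, 36.6 and 40.01 in Ctrl + Morphine. It was at 53.3, 35.5, 33.4, 34.3 and 39.4 in Kdm7a-shRNA + Saline and at 39.2, 43.3, 39.8 and 52.9 in Kdm7a-shRNA + Morphine. The lowest Per1 values were those of 2 Ctrl + Saline mice, and all groups overlapped. The Per1 difference from Ctrl + Saline to Ctrl + Morphine was 0.56 (SE 0.216, unadjusted p = 0.0183, edgeR adjusted p = 0.301). This value rested on single mice, at 0.35 without Ctrl + Saline replicate 1 and 0.87 without Ctrl + Saline replicate 2.

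Per2 (chr1:91415982-91459324, minus strand) was at 5.82, 6.64 and 3.31 in Ctrl + Saline, from 25 to 68 reads per mouse, and at 6.99, 8.43, 6.70 and 5.78 in Ctrl + Morphine. The Kdm7a-shRNA mice were at 4.48, 3.92, 4.15, 5.17 and 4.32 under saline and at 5.67, 4.08, 4.81 and 5.64 under morphine. Under morphine every Kdm7a-shRNA mouse lay below every Ctrl mouse, by a small margin, with a Per2 log2 difference of -0.47 (SE 0.208, edgeR adjusted p = 0.163). Per3 (chr4:151003652-151044665, minus strand) ranged from 4.36 to 6.15 in Ctrl + Saline, 5.88 to 7.30 in Ctrl + Morphine, 3.82 to 5.29 in Kdm7a-shRNA + Saline and 5.10 to 7.97 in Kdm7a-shRNA + Morphine. Its largest difference was from saline to morphine in the Kdm7a-shRNA mice, 0.44 (SE 0.178, unadjusted p = 0.0238, edgeR adjusted p = 0.698).

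Nr1d1 and Nr1d2 encode the REV-ERB repressors of Arntl. Nr1d1 (chr11:98767932-98775333, minus strand) was at 11.6, 14.4 and 11.9 in Ctrl + Saline and at 17.3, 25.6, 16.6 and 15.1 in Ctrl + Morphine. The Kdm7a-shRNA mice were at 19.3, 21.4, 16.4, 16.9 and 14.5 under saline and at 26.5, 21.7, 24.4 and 26.4 under morphine. All 13 mice of the other groups exceeded the highest Ctrl + Saline mouse, by a small margin for the nearest (14.47 against 14.35). All Kdm7a-shRNA + Morphine mice exceeded all Kdm7a-shRNA + Saline mice, with 21.7 as the lowest against 21.43 as the highest. The differences had similar sizes: 0.56 (SE 0.186) for morphine in Ctrl mice, 0.48 (SE 0.158) for morphine in Kdm7a-shRNA mice, 0.48 (SE 0.179) for the Kdm7a virus under saline and 0.41 (SE 0.167) under morphine. The edgeR adjusted p-values in that order were 0.241, 0.589, 0.0659 and 0.131, so Nr1d1 passed none of them. For morphine in Ctrl mice the Nr1d1 difference was 0.36 without Ctrl + Morphine replicate 2 and 0.46 to 0.66 without any other mouse of these groups. Without Ctrl + Morphine replicate 2, its highest Ctrl mouse, the difference under morphine was 0.60 and passed (adjusted p = 0.0192).

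Nr1d2 (chr14:18204054-18239127, minus strand) varied little between groups. It ranged from 10.4 to 13.7 in Ctrl + Saline, 11.7 to 13.7 in Ctrl + Morphine, 12.1 to 14.2 in Kdm7a-shRNA + Saline and 11.4 to 15.8 in Kdm7a-shRNA + Morphine. Its log2 differences in the 4 comparisons lay between 0.05 and 0.17, with intervals that included 0. Under morphine its difference between viruses was 0.09 (95% interval -0.20 to 0.38), and with library size alone it turned to -0.01.

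Dbp (chr7:45705088-45710203, plus strand), the output factor that reads the D-box, had the largest morphine difference of the 10 genes with either virus. It was at 18.1, 13.1 and 12.6 in Ctrl + Saline and at 33.0, 33.9, 22.0 and 24.5 in Ctrl + Morphine. The Kdm7a-shRNA mice were at 22.2, 24.8, 16.4, 20.0 and 19.6 under saline and at 26.4, 27.0, 37.3 and 33.6 under morphine. With either virus, every Morphine mouse lay above every Saline mouse. The mean was 14.6 ± 3.06 (SD, n = 3) in Ctrl + Saline and 28.4 ± 5.97 (SD, n = 4) in Ctrl + Morphine, a log2 difference of 0.96 (SE 0.199, unadjusted p = 0.000139, edgeR adjusted p = 0.109). In the Kdm7a-shRNA mice the means were 20.6 ± 3.13 (SD, n = 5) and 31.0 ± 5.28 (SD, n = 4), a log2 difference of 0.60 (SE 0.168, unadjusted p = 0.00235, edgeR adjusted p = 0.501).

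Whether Dbp passed depended on the test and on 1 mouse. DESeq2's Wald test on the same counts gave 0.94 for Ctrl mice (DESeq2 adjusted p = 0.00397). Without Ctrl + Saline replicate 1, its highest mouse in that group, edgeR gave 1.11 (adjusted p = 0.0184). Leaving out this mouse also changed the count over all genes, from 0 of 18826 to 230 of 19425 that passed. The test of the difference between the morphine effects in Kdm7a-shRNA and Ctrl mice gave -0.37 (SE 0.259, edgeR adjusted p = 0.659). The Kdm7a virus under saline gave a Dbp difference of 0.50 (SE 0.191, edgeR adjusted p = 0.0734), which passed at 0.64 without Ctrl + Saline replicate 1 (adjusted p = 0.0439), beside 3099 of 19425 genes.

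The calls among the members are set here beside those among all genes. From Ctrl + Saline to Ctrl + Morphine 0 of 10 members passed, as did 0% of all genes (edgeR), while 3 of 10 members (Dbp, Nr1d1 and Per1) against 11.7% of genes had an unadjusted p under 0.05. DESeq2 called 1 member, Dbp, in that comparison, against 0.983% of genes. From Ctrl + Morphine to Kdm7a-shRNA + Morphine 1 of 10 members was lower and passed, against 4.83% of genes, and by adjusted p alone 2 of 10 (Cry1 and Clock) against 9.26%. Counted in either direction, 1 of 10 members passed, beside 1448 of 18826 genes. This count was 3 without Ctrl + Morphine replicate 2 (Cry1 and Clock lower, Nr1d1 higher), beside 1627 of 18767 genes, and 2 without Kdm7a-shRNA + Morphine replicate 4 (Cry1 and Clock), beside 2066 of 18804. It was 0 without Ctrl + Morphine replicate 3, beside 750 of 18697 genes, and 0 without Ctrl + Morphine replicate 4, beside 578 of 18661. From Ctrl + Saline to Kdm7a-shRNA + Saline 0 of 10 passed although 16.7% of genes did, and 4 of 10 against 34.7% had an unadjusted p under 0.05 (DESeq2 called 0 members and 17.8% of genes). From Kdm7a-shRNA + Saline to Kdm7a-shRNA + Morphine 0 of 10 passed, against 0.00531% of genes, and 4 of 10 (Dbp, Nr1d1, Per3 and Cry1) against 7.02% had an unadjusted p under 0.05 (DESeq2 called 0 members and 0.106% of genes). For the interaction of virus and treatment 0 of 10 passed, against 0.085%, and 0 of 10 against 10.7% had an unadjusted p under 0.05 (DESeq2 called 0 members and 1.15% of genes). These comparisons share groups: the Ctrl + Saline mice serve in the morphine comparison of Ctrl mice and in the virus comparison under saline, so their values for a gene are not independent.

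**Figure D2:**
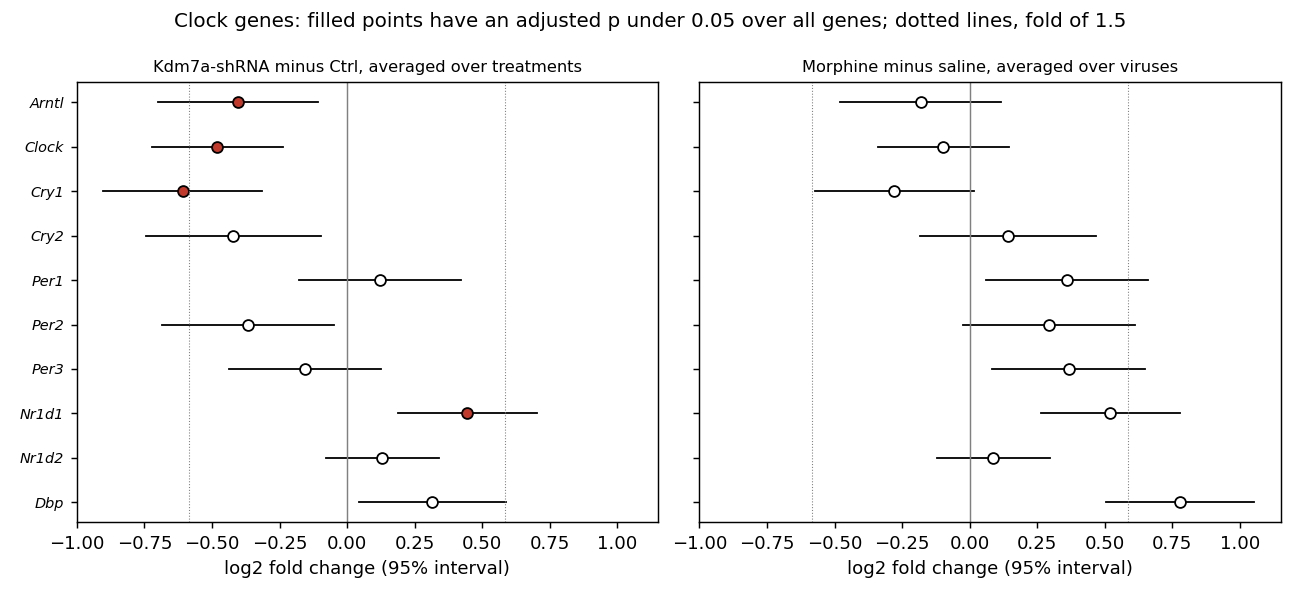
Log2 fold changes of the 10 clock genes with 95% intervals, for the Kdm7a virus averaged over treatments (left) and for morphine averaged over viruses (right). Filled points have an adjusted p under 0.05 over all genes and dotted lines mark a fold of 1.5: Arntl, Clock, Cry1 and Nr1d1 are filled on the left and no gene is filled on the right, where Dbp lies at 0.78.

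Averaging the effects in the same fit used all 16 mice for each question. For the Kdm7a virus, 1 of 10 members was lower and passed (Cry1, -0.61, SE 0.140, edgeR adjusted p = 0.00369), against 9.93% of genes. By adjusted p alone 4 of 10 members were called, against 27.6% of genes. These were Cry1, Clock (-0.48, SE 0.115, adjusted p = 0.00513) and Arntl (-0.40, SE 0.141, adjusted p = 0.0400) on the lower side and Nr1d1 (0.44, SE 0.123, adjusted p = 0.0118) on the higher side. The Arntl call was lost without any one of 11 of the 16 mice, all but Kdm7a-shRNA + Morphine replicates 1 and 4, Ctrl + Morphine replicate 1 and Kdm7a-shRNA + Saline replicates 1 and 4, with adjusted p-values up to 0.0960, whereas the other 3 kept an adjusted p under 0.05 without any one mouse. At an unadjusted p under 0.05 were 7 of 10 members, against 38.8% of genes. The Cry1 difference was near the fold limit and dropped under it without any of Kdm7a-shRNA + Morphine replicates 1 or 2, Ctrl + Morphine replicates 3 or 4, or Kdm7a-shRNA + Saline replicate 5, at -0.58 to -0.55 with adjusted p-values of 0.00781 to 0.00988. With library size alone in place of TMM the median of all genes moved to -0.11, and Cry1, Clock, Arntl and Nr1d1 were at -0.73, -0.60, -0.52 and 0.33. The median log2 difference was -0.26 over the 10 members and 0.01 over all genes.

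For morphine averaged over viruses 0 of 10 members passed, as did 0% of genes with edgeR, and 4 of 10 against 8.36% had an unadjusted p under 0.05. Those 4 were Dbp (0.78, SE 0.130, unadjusted p = 1.23e-05, edgeR adjusted p = 0.112), Nr1d1 (0.52, SE 0.122, adjusted p = 0.340), Per3 (0.37, SE 0.134, adjusted p = 0.530) and Per1 (0.36, SE 0.143, adjusted p = 0.549). All are among the 8 members that CLOCK and ARNTL activate. The other 4 of these 8 had unadjusted p-values above 0.05, with 0.29 (SE 0.151) for Per2, 0.14 (SE 0.155) for Cry2, 0.09 (SE 0.0994) for Nr1d2 and -0.28 (SE 0.140) for Cry1. DESeq2 called 1 member, Dbp, in this comparison (0.77, DESeq2 adjusted p = 0.000167), against 0.0372% of genes. Without Ctrl + Saline replicate 1, edgeR called Dbp as well (0.86, adjusted p = 0.0190), beside 27 of 19425 genes. The activators gave -0.10 (SE 0.116) for Clock and -0.18 (SE 0.141) for Arntl, with 95% intervals of -0.34 to 0.15 and -0.48 to 0.12. The median log2 difference was 0.22 over the 10 members and 0.00234 over all genes.

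**Figure D3:**
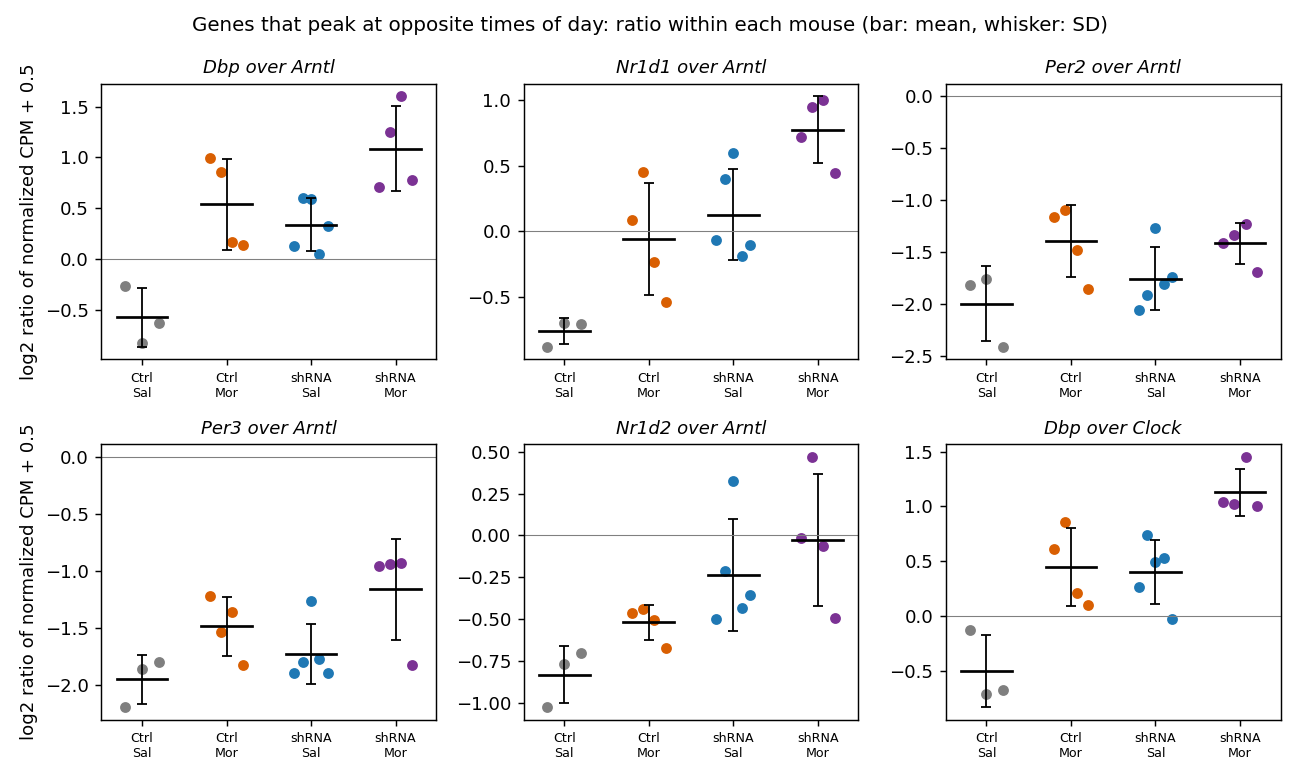
Log2 ratio of normalized CPM (plus 0.5) of clock genes that peak at opposite times of day, with a point per mouse, the group mean as a bar and the SD as a whisker. Dbp over Arntl rises from a mean of -0.57 in Ctrl + Saline to 1.09 in Kdm7a-shRNA + Morphine, and Per2 over Arntl overlaps between neighbouring groups.

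Genes that peak at opposite times of day move in opposite directions when the clock advances, and their ratio within a mouse does not depend on how the library is scaled, apart from the 0.5 CPM added to each value. Such ratios are given as a description, with no test. They are made from the levels given above, so they are not further measurements, and all but Dbp over Clock share Arntl. For morphine in Ctrl mice Dbp differed by 0.96, but Arntl by -0.18 and Clock by -0.02. There the ratios with Dbp moved mainly through Dbp. Dbp over Arntl was at -0.57 ± 0.288 (SD, n = 3) on the log2 scale in Ctrl + Saline, 0.54 ± 0.449 (n = 4) in Ctrl + Morphine, 0.34 ± 0.257 (n = 5) in Kdm7a-shRNA + Saline and 1.09 ± 0.421 (n = 4) in Kdm7a-shRNA + Morphine. As linear ratios these were 0.672, 1.45, 1.27 and 2.12. All Ctrl + Saline mice were below 0, at -0.83 to -0.26, and all other mice were above 0, from 0.05 upward. Ctrl + Morphine and Kdm7a-shRNA + Saline overlapped, as did Ctrl + Morphine and Kdm7a-shRNA + Morphine.

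Nr1d1 over Arntl had the same outer groups, with -0.76 ± 0.102 in Ctrl + Saline, -0.06 ± 0.426 in Ctrl + Morphine, 0.13 ± 0.348 in Kdm7a-shRNA + Saline and 0.78 ± 0.254 in Kdm7a-shRNA + Morphine. The Ctrl + Saline mice lay below all others. Dbp over Clock stood at -0.51, 0.44, 0.40 and 1.13 in the same order. For this ratio the Ctrl + Saline mice were the lowest, the Kdm7a-shRNA + Morphine mice the highest from 1.00 to 1.45, and the middle groups overlapped each other. Nr1d2 over Arntl stood at -0.83, -0.52, -0.24 and -0.03. The Per ratios showed less order: Per2 over Arntl was at -1.995, -1.40, -1.76 and -1.42, and Per3 over Arntl at -1.95, -1.49, -1.73 and -1.16, with Ctrl + Saline overlapping Kdm7a-shRNA + Saline in each.

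Between mice of the same group, no antiphase pair gave a negative correlation. Log2 levels were centred on the group means and correlated over the 16 mice for 6 antiphase and 3 in-phase pairs, with a two-sided permutation test that exchanged mice within groups 100000 times. All 6 antiphase pairs had a positive Pearson r, from 0.14 for Dbp and Arntl (Spearman rho 0.05, permutation p = 0.616 and 0.859) to 0.40 for Per2 and Arntl (rho 0.46, permutation p = 0.0610 and 0.0711). The in-phase pair Dbp and Nr1d1 had r = 0.46 and rho = 0.39 (permutation p = 0.128 and 0.188), and r = 0.50 without the 2 mice farthest from the median of Dbp. The in-phase pair Per1 and Per2 had r = 0.39 and rho = 0.31 (permutation p = 0.356 and 0.369). The in-phase pair Dbp and Per3 had the opposite sign, with r = -0.325 and rho = -0.335 (permutation p = 0.262 and 0.273). Adjusted over the 9 pairs, the smallest permutation p was 0.525 for r and 0.491 for rho, so no pair passed.

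Without centring, when group differences enter, Dbp and Nr1d1 correlated over the 16 mice with r = 0.80 and rho = 0.86 (permutation p = 0.00035 and 6e-05, adjusted p = 0.00315 and 0.00054). This permutation exchanged mice across groups, so its p-values include the differences between group means and do not measure co-variation within groups. The antiphase pairs of Dbp, Nr1d1 or Nr1d2 with Arntl and of Dbp with Clock turned negative without centring, with r = -0.30, -0.38, -0.12 and -0.22. The antiphase pairs of Per2 and Per3 with Arntl stayed positive, with r = 0.42 and 0.16. No antiphase pair passed.

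**Figure D4:**
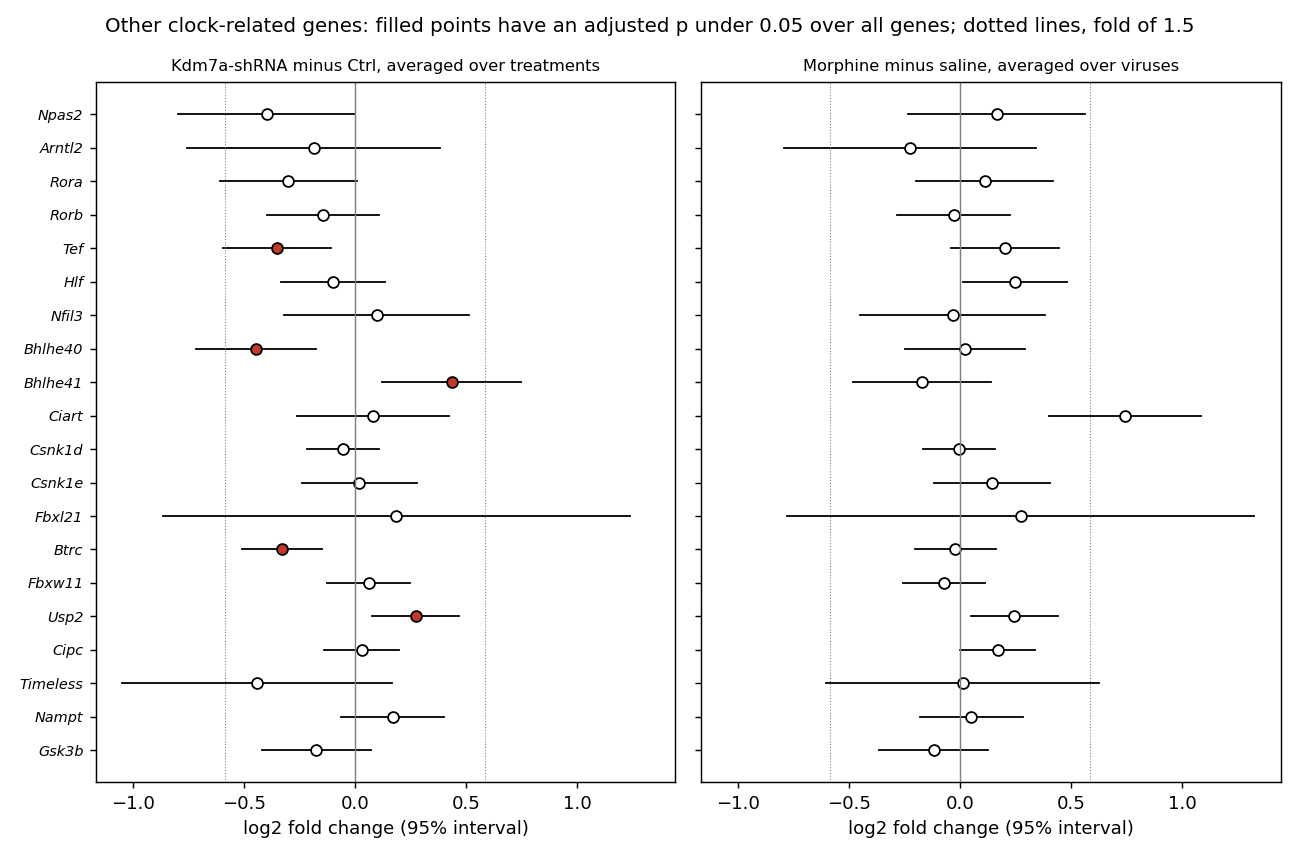
Log2 fold changes with 95% intervals of 20 further clock-related genes, for the Kdm7a virus averaged over treatments (left) and morphine averaged over viruses (right). Filled points have an adjusted p under 0.05 over all genes: Tef, Bhlhe40, Bhlhe41, Btrc and Usp2 are filled on the left and no gene is filled on the right, where Ciart lies at 0.74.

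The wider clock was read from 20 further genes, all of which were tested. For morphine averaged over viruses 0 of 20 passed with edgeR, as did 0% of genes, and 4 of 20 against 8.36% of genes had an unadjusted p under 0.05, with a median log2 difference of 0.04 (DESeq2 counts were not made for this list). Ciart, which encodes a repressor of CLOCK and ARNTL and cycles with Dbp, was at 11.8 to 14.4 in Ctrl + Saline and 17.8 to 22.7 in Ctrl + Morphine, and at 8.41 to 18.9 in Kdm7a-shRNA + Saline and 17.7 to 31.4 in Kdm7a-shRNA + Morphine. Its difference was 0.74 (SE 0.163, unadjusted p = 0.000253, edgeR adjusted p = 0.298), close in size to that of Dbp. The relatives of Dbp that read the same D-box gave smaller values, 0.25 (SE 0.112) for Hlf and 0.20 (SE 0.116) for Tef. Nfil3, the D-box repressor, gave -0.03 (SE 0.198).

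For the Kdm7a virus averaged over treatments 0 of the 20 passed with edgeR, against 3316 of all 18826 genes, 6 of 20 against 38.8% of genes had an unadjusted p under 0.05, and the median was -0.08. Bhlhe40 and Bhlhe41, which encode related repressors at E-boxes, had opposite signs, at -0.44 (SE 0.128, edgeR adjusted p = 0.0151) and 0.44 (SE 0.149, edgeR adjusted p = 0.0361). Tef gave -0.35 (SE 0.116, adjusted p = 0.0312). By adjusted p alone, 27.6% of all genes were called in this comparison. Under saline alone, where 16.7% of all genes passed, Bhlhe40 fell by 0.64 (SE 0.182, adjusted p = 0.0209), the only one of the 20 to pass in any comparison.

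Some reads of the clock genes may belong to neighbours. Nr1d1 and Thra overlap on opposite strands by 1075 bases and Dbp and Sphk2 by 737 bases, Per3 lies inside Camta1 on the same strand, and Cry2 overlaps D930015M05Rik on the opposite strand. How the counting used strand is not stated, so part of these values is uncertain. For morphine averaged over viruses Thra gave 0.13 (SE 0.151), Sphk2 0.21 (SE 0.129) and Camta1 0.19 (SE 0.0905), each smaller than the value of its clock neighbour. In Ctrl mice alone Thra gave 0.47 (SE 0.228) and Sphk2 0.44 (SE 0.196), beside 0.56 for Nr1d1 and 0.96 for Dbp, and Camta1 gave 0.31 (SE 0.137), about the same as the 0.29 of Per3. With the Kdm7a virus under saline these 3 neighbours gave 0.25 to 0.45, beside 0.48 for Nr1d1, 0.50 for Dbp and -0.23 for Per3. With the virus under morphine they gave -0.23 to 0.06, beside 0.41, 0.13 and -0.08. Thra had 1030 to 2990 reads per mouse and Nr1d1 88 to 284. The share of the neighbours in the clock values was not tested.

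Other properties of the tissue moved with the groups. Kdm7a itself was at 6.19 to 9.78 in the 7 Ctrl mice and 3.01 to 6.28 in the 9 Kdm7a-shRNA mice, with a log2 difference of -0.71 (SE 0.145, edgeR adjusted p = 0.00154), with a slight overlap of the ranges. It passed under saline (-0.76, SE 0.204, adjusted p = 0.0153) and was just short under morphine (-0.67, SE 0.206, adjusted p = 0.0506). Neuronal markers were abundant in all mice, with a summed level of 1871 to 3330. With the Kdm7a virus averaged over treatments 6 of 7 microglial markers were higher and passed, and all 7 had a positive difference. Their summed level was 377 to 817 in Ctrl and 705 to 3178 in Kdm7a-shRNA mice. In that comparison 3316 of 18826 genes passed in either direction. Of the astrocyte markers 3 of 6 were higher and passed, all 6 had a positive difference, and the sums were 371 to 646 and 507 to 1226. Of the neuronal markers 1 of 7, Gad2, was lower and passed, and 0 of 7 had a positive difference. Endothelial markers were higher and passed in 2 of 4 cases (4 positive differences), and those of choroid plexus and ependyma in 2 of 3 (2 positive). Of the cortical layer markers 1 of 6 was lower and passed, and 1 of 6 had a positive difference. With 0 passing were the 6 oligodendrocyte (6 positive), 2 oligodendrocyte precursor (2 positive), 6 striatal (3 positive) and 3 blood markers (0 positive). For morphine averaged over viruses 0 markers passed in each of these lists. In Ctrl mice the summed striatal markers were at 68.6 to 90.8 under saline and 116.6 to 146.1 under morphine. The cortical layer sums were 71.3 to 80.75 and 89.7 to 99.4, so neither list overlapped. In that comparison 3 of 6 striatal and 4 of 6 layer markers had a positive difference. In each list 0 of 6 passed and 1 of 6 had an unadjusted p under 0.05. Haemoglobin genes had a summed level of 623 to 1324 in Ctrl + Saline and 281 to 996 in the other groups. With the Kdm7a virus under saline all 3 blood markers fell, with a median of -1.33, and all 3 had an unadjusted p under 0.05 for morphine in Ctrl mice (median -1.22) and for the interaction (median 1.685). Ctrl + Saline was also the group with the lowest Dbp and Nr1d1 means. The part of these shifts in the clock values was not tested.

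Neuronal activity and glucocorticoids, which induce Per1 and Per2, also induce other genes. Of 15 activity genes 0 passed for morphine averaged over viruses, 1 had an unadjusted p under 0.05 (8.36% of all genes did) and the median was 0.09, and of 12 glucocorticoid-induced genes 0 passed, 1 had an unadjusted p under 0.05 and the median was -0.11. For morphine in Ctrl mice alone 0 of 15 activity genes passed. There 3 had an unadjusted p under 0.05, against 11.7% of all genes: Btg2 at -0.82, Fos at -0.77 and Ier2 at 0.86. For the interaction 0 of 15 passed and 3 had an unadjusted p under 0.05, against 10.7% of genes. In both of these comparisons 0 of 12 glucocorticoid-induced genes passed and 1 had an unadjusted p under 0.05. For the Kdm7a virus averaged over treatments Egr2 fell by 0.64 (SE 0.211, adjusted p = 0.0300), the only activity gene called in that comparison, and in the glucocorticoid list Cdkn1a rose by 0.61 whereas Mt1 and Mt2 fell by 0.75 and 0.76. In that comparison 3316 of 18826 genes passed. With the virus under saline 4 of 15 activity genes passed, with Egr2, Fos and Nr4a1 at -1.06, -0.86 and -0.69 and Ier2 at 1.24. Of the glucocorticoid-induced genes 2 of 12 passed there, Cdkn1a (0.87) and Sult1a1 (1.01), and of all genes 16.7%. Under morphine 0 of 15 activity genes and 2 of 12 glucocorticoid-induced genes passed, Fkbp5 at -0.60 and Nfkbia at 0.65, beside 1448 of 18826 genes. The genes named here other than Per1 and Per2 were named after their values were seen.

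Over the 16 mice, with group means removed, the genes most like Dbp among 10117 known genes were Rab24 (r = 0.86), Zranb1 (0.85), Ube2r2 (0.84), Ube2z (0.84) and Dnttip1 (0.82). Those most like Arntl were Spag7 (r = 0.89), Inka2 (0.88), Rb1cc1 (0.85), Tm7sf2 (0.84) and Dlg3 (0.83). These are the highest values of a large search, given as a description, and all points share the libraries and their depth. None of the 20 further clock genes was among them.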

How the data were processed

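RNA of the mPFC of 16 mice was sequenced as full-length cDNA on the Nanopore platform after a PCR-based library preparation. The authors discarded short, low-quality and ribosomal reads, placed full-length reads on mm10 with minimap2, and deposited whole-number counts per gene and mouse, with known genes and loci assembled from their own reads. The submitters' processing notes also name edgeR 3.8.6. The deposited CPM values divide each count by its column total, which was checked to within 4.99e-06, and were not tested. The counts hold PCR copies without molecular identifiers.

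The deposited counts were tested with edgeR 4.0.16 under R 4.3.3 (limma 3.58.1 is loaded with it). Genes were kept by filterByExpr, scaled with TMM (factors 0.913 to 1.07) and tested with the quasi-likelihood test in 1 fit with a coefficient per group and all 16 mice. Benjamini-Hochberg adjustment covered 18826 genes, of which 4382 are assembled loci. A gene passed with an adjusted p under 0.05 and a fold of at least 1.5, the limits the study names. Standard errors are the log2 fold change divided by the root of F, and the biological coefficient of variation was 0.215. Adjusted p-values are edgeR's unless DESeq2 1.42.0 is named.

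The 10 members and all lists (other clock, activity, glucocorticoid-induced and cell type marker genes) were chosen with earlier results of these data known. The named genes are all members, the other clock genes that passed in any comparison, Tef, Hlf, Ciart, Bhlhe40, Bhlhe41 and Nfil3, and, for likeness to Dbp and Arntl, the 5 known genes with a mean of at least 5 CPM and the highest correlation. Of the list of other clock genes, 2 are not reported here. Thra, Sphk2 and Camta1 were added as overlapping genes after values were seen. Ratios and correlations use log2 of normalized CPM plus 0.5. Positions of genes follow GENCODE vM21 (GRCm38). Alternatives were RLE factors, library size only, no filter, 10 counts in every mouse, DESeq2's Wald test, the replicate number as a block, known genes only, the compared groups only, adjusted p alone, each mouse left out, a pseudocount of 0.1 and uncentred correlations. The scripts were tested on simulated data. Mice of different groups that share a number are different animals. Transcript-level values were not analysed here.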

Additional observations from a re-analysis of the deposited data

Results flagged for a closer look

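Nr1d2 in Ctrl + Morphine replicate 1 stood apart from its group, at 11.7 normalized CPM against 13.6 to 13.7 in the other 3 mice, so that its gap to the nearest mouse was 0.93 of the whole range of the group. It was 1 of 30 groups of 4 or 5 mice examined over the 10 genes, where chance gives about 1.5. The spread of the other 3 mice was narrow, and 11.7 lies within the range of Nr1d2 in Ctrl + Saline and in Kdm7a-shRNA + Morphine.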

How the results depend on the processing

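The number of clock genes that passed changed as follows. From Ctrl + Saline to Ctrl + Morphine it was 1 with DESeq2 (beside 185 of 18826 genes) and 0 to 1 without a mouse (1 without Ctrl + Saline replicate 1, beside 230 of 19425). From Ctrl + Morphine to Kdm7a-shRNA + Morphine it was 2 with library size only (beside 1640 of 18826 genes), with known genes only (446 of 14435) and by adjusted p alone (1744 of 18826). It was 0 in a fit of the compared groups (685 of 16657), and 0 to 3 without a mouse. From Ctrl + Saline to Kdm7a-shRNA + Saline it was 1 (Cry2) with library size only (beside 3309 of 18826 genes) and 1 (Cry2) with the replicate number as a block (3198 of 18826), and 0 to 1 without a mouse. For the virus averaged over treatments it was 2 with library size only (beside 3444 of 18826 genes), 4 by adjusted p alone (5190 of 18826) and 0 to 1 without a mouse. For morphine averaged over viruses it was 1 with DESeq2 (beside 7 of 18826 genes) and 0 to 1 without a mouse (1 without Ctrl + Saline replicate 1, beside 27 of 19425). Under the other alternatives these counts did not change, and the causes were not tested. Deviations of same-numbered mice correlated at r of -0.116 to 0.433 over 21 pairs (median 0.00401, 6 above 0.1). The 74 pairs of mice with different numbers gave -0.514 to 0.342 (median -0.00243). Of 15 mice, 8 correlated best with a mouse of their own number. Whether mice of the same number shared a batch or an order was not tested, and the block pairs different animals.

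Differences near 0 turned sign. From Ctrl + Saline to Ctrl + Morphine, Cry2 was 0.000195 with library size only and 0.00300 in a fit of the compared groups, and without a mouse the ranges were -0.0813 to 0.0291 for Clock, -0.169 to 0.0777 for Cry1, -0.17 to 0.15 for Cry2 and -3.05e-05 to 0.23 for Nr1d2. From Ctrl + Morphine to Kdm7a-shRNA + Morphine, Nr1d2 was -0.0121 with library size only, and Per1 was -0.182 to 0.0203 without a mouse. From Kdm7a-shRNA + Saline to Kdm7a-shRNA + Morphine, Nr1d2 was -0.00870 to 0.141 without a mouse. For the interaction the ranges without a mouse were -0.16 to 0.12 for Arntl, -0.425 to 0.0610 for Per2, -0.18 to 0.12 for Nr1d1 and -0.186 to 0.0639 for Nr1d2. Without centring on group means, r was -0.30 for Dbp and Arntl, -0.38 for Nr1d1 and Arntl, -0.12 for Nr1d2 and Arntl, -0.22 for Dbp and Clock, 0.32 for Dbp and Per3 and 0.80 for Dbp and Nr1d1. Per2, Per3 and Cry1 rested on 25 to 105 reads per mouse.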
